A study of Mus musculus with 4 samples.

Results

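The genes described here repair DNA double-strand breaks and interstrand crosslinks, and 30 of them were chosen by name from the 25413 genes of the deposited count table. All 30 were present, and all 30 passed the filter on low counts that left 12478 genes for testing. Their transcripts were measured by RNA sequencing in 4 libraries labelled as EpH4, a mouse mammary epithelial line, of wild-type genotype and grown in 2D. Of these, 2 came from cells exposed to PM2.5, fine particulate matter from air, and 2 from untreated control cells. The labels state neither the dose nor the time of exposure, and they put all 4 libraries in a single batch. They do not say that the libraries of a group came from separate cultures, so the spread behind each p-value may be only technical.

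A double-strand break is among the most toxic lesions of DNA, and a crosslink between both strands blocks replication until it is unhooked. Homologous recombination copies the lost sequence from the sister chromatid, mostly in S and G2 phase, whereas end joining ligates the broken ends at any time in the cycle. The Fanconi anemia pathway recognises crosslinks and hands the resulting break to recombination, and inherited defects of BRCA1 and BRCA2 predispose humans to breast cancer. The comparison addresses whether exposure to fine particles was accompanied by a different level of the transcripts that encode this machinery.

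Levels per gene length were read from RPKM, reads per kilobase and per unit of depth, as deposited by the authors. Differences between groups were taken from counts scaled to library size (CPM), with edgeR's quasi-likelihood test adjusted by Benjamini-Hochberg over all tested genes and a threshold of 0.05. Total counts were 20232277 and 18548478 in the PM2.5 libraries and 19562930 and 26206329 in the control libraries. The repair genes together took 0.149% and 0.151% of these counts in PM2.5, against 0.155% and 0.154% in control. Because RNA was taken from bulk cultures, fewer cells of a kind and less RNA per cell cannot be told apart. The label of a mammary epithelial cell was set against 14 epithelial genes. Of these, 13 averaged below 1 CPM, and all 4 libraries had 0 counts of Epcam, Krt5, Krt18, Krt19, Cldn4 and Esrp1. The 14 summed to 22.1 and 21.1 CPM in PM2.5, against 53.5 and 51.5 CPM in control, and nearly all of that was Krt14. These values go against the epithelial label, and the cells are called EpH4 here by their label only. Summed levels of 13 fibroblast or mesenchymal genes were 4606.5 and 4788.5 CPM in PM2.5, against 5877.6 and 5692.2 CPM in control, and no gene of that list was at 0. Immune genes (9) summed to 16.3 and 18.02 CPM in PM2.5, against 9.68 and 10.6 CPM in control, with Itgam and Cd3e at 0. Adipocyte genes (5) summed to 5.91 and 4.32 CPM in PM2.5, against 0.526 and 0.698 CPM in control, with Adipoq and Cidec at 0. Endothelial genes (6) summed to 0.436 and 0.843 CPM in PM2.5, against 1.05 and 0.504 CPM in control, with Tie1 and Emcn at 0. The part of these differences in the results below was not tested.

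Most repair transcripts did not pass the test between PM2.5 and control, and those that did were lower with 1 exception. Of the 30 genes, 7 fell (Nbn, Fanca, Rad54b, Rad54l, Rad50, Rbbp8 and Brip1), 1 rose (Brca2) and 22 did not pass the threshold. Among all 12478 tested genes, 39.6% were called, 20.4% lower (2545) and 19.2% higher (2400). Scaling by library size alone moved that split to 1880 lower and 3079 higher, and the median of all genes to 0.07. The repair genes were called in 26.7%, with 23.3% lower and 3.33% higher. Their share of falls was near that of all genes, and their share of rises was below it. In 24 of the 30 the log2 fold change was smaller than 0.25 in either direction, and the range ran from -0.72 for Nbn to 0.22 for Xrcc4. The median over the 30 was -0.08, against 0.01 over all tested genes. Both PM2.5 libraries lay below both control libraries in 14 of the 30 (46.7%, against 35.1% of all tested genes) and above them in 5 (16.7%, against 35.9%). Against a minimum change of 1.5-fold, edgeR called 4.13% of all genes and none of the 30.

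**Figure D1:**
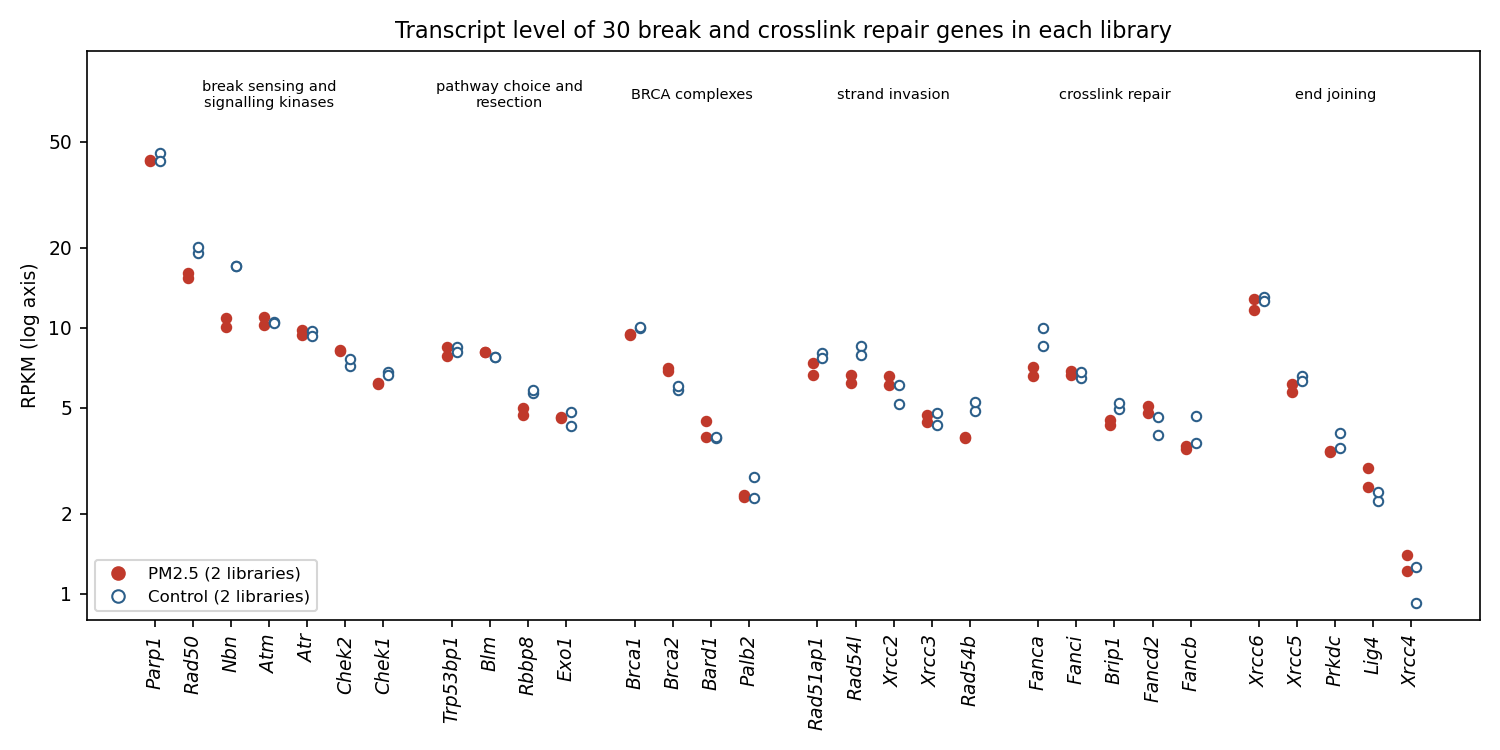
Deposited RPKM (log axis) of the 30 repair genes in each library, with 2 PM2.5 libraries as filled points left of 2 control libraries as open points, ordered by level within each role. Parp1 is the highest and Xrcc4 the lowest, and the filled points of Nbn, between 10.1 and 10.9 RPKM, sit below its open points at 17.1 RPKM.

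RefSeq promoters of the GRCm38.p6 build were matched by symbol for 22 of the 30 genes, and the 250 bases upstream of the annotated start were searched on both strands. The 4 called genes with a match, of 8 called, are shown as the upstream sequence of the genes that the results turn on, with E2F motifs (TTTCCCGC, TTTCGCGC, TTTGGCGC or TTTGCCGC) and CCAAT boxes (CCAAT) in capitals, in either orientation. E2F factors drive genes of S phase, and the CCAAT box is bound by the factor NF-Y, which acts at many cell cycle promoters.
Brca2, chr5:150522371-150522620, plus strand: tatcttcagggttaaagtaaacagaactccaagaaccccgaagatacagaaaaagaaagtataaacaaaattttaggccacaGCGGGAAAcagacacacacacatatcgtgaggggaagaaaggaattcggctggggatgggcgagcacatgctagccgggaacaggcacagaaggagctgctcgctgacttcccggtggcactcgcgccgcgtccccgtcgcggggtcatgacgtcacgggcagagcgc
Rad54l, chr4:116123691-116123940, minus strand: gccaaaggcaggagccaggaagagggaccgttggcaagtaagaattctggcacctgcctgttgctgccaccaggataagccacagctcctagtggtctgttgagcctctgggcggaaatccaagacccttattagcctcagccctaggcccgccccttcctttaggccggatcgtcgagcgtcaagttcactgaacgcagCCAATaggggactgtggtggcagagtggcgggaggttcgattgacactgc
Fanca, chr8:123318577-123318826, minus strand: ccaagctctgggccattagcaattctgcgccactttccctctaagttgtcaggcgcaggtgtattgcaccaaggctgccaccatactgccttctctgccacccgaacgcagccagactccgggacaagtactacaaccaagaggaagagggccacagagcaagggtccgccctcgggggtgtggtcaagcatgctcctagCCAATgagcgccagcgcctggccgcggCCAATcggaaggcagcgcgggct
Brip1, chr11:86201194-86201443, minus strand: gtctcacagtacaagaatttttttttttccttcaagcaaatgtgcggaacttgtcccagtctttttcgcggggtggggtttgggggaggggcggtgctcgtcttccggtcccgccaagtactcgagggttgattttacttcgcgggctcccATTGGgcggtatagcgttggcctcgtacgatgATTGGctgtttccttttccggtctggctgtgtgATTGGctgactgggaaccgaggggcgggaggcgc

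The 3 shown genes that fell held 1 to 3 CCAAT boxes and no E2F motif in this window, whereas Brca2, the gene that rose, held 1 E2F motif and no CCAAT box. The same motifs were in uncalled genes: of 18 with a promoter, 8 held a CCAAT box and 3 (Bard1, Chek2 and Xrcc6) an E2F motif. With only 4 called genes that had a promoter, a difference between called and uncalled genes was not tested. Over the 22 repair promoters, an E2F motif was found in 4 (18.2%), against 1.91% of 27025 mouse promoters of all gene types, and a CCAAT box in 11 (50%), against 34.5%. The core GCGTG bound by the aryl hydrocarbon receptor, a sensor of combustion products, was found in 12 (54.5%), against 28.2% of all promoters. It was in none of the 4 promoters shown. The Sp1 box GGGCGG was found in 15 (68.2%, against 32.9%), the mitotic element TTTGAA in 1 (4.55%, against 16.3%) and the NRF1 motif in 1 (4.55%, against 0.781%). These matches describe letters in the window and are not evidence of binding. All 22 repair genes had passed the filter on low counts. The 27025 promoters were neither limited to expressed genes nor matched for base composition.

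Sensing of a break begins with the MRN complex, in which RAD50 tethers the ends and NBN recruits the kinase ATM. Nbn (ENSMUSG00000028224, chromosome 4, 15957925 to 15992589, plus strand, GRCm39) had 32.8 and 30.2 CPM in the PM2.5 libraries, against 52.1 and 52.0 CPM in the control libraries. The groups were far apart relative to the spread within them, and the means were 31.5 ± 1.82 CPM in PM2.5 and 52.0 ± 0.102 CPM in control (SD, n = 2 each). Nbn fell by 0.72 on the log2 scale (SE 0.07, edgeR adjusted p = 4.103e-05), the largest change among the 30. Rad50 (ENSMUSG00000020380, chromosome 11, 53540346 to 53598146, minus strand) had 98.4 and 93.6 CPM in PM2.5, against 118 and 124 CPM in control. It fell by 0.34 (SE 0.06, edgeR adjusted p = 0.001647), and its groups did not overlap either. Mre11a, which encodes the nuclease of the complex and is the remaining subunit, had 77.0 and 74.9 CPM in PM2.5, against 88.2 and 83.8 CPM in control. Its log2 fold change was -0.18 (SE 0.06, edgeR adjusted p = 0.04517). That is close to the threshold, and Mre11a was named after its values were seen. All MRN subunits were thus lower in this fit, though Rad50 did not pass relative to the 25 tested genes on either side, as given below. The amounts were unequal: per length, the ratio of Nbn to Rad50 was 0.677 and 0.656 in PM2.5, against 0.895 and 0.851 in control. With 2 libraries against 2, an exact permutation test of such a ratio cannot pass the threshold, and none was run.

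The kinases downstream of break sensing did not pass the test. Atm, the apical kinase for double-strand breaks, had 123 and 131 CPM in PM2.5 and 128 and 126 CPM in control, a log2 fold change of -0.00 with a 95% interval of -0.13 to 0.13. Atr, the kinase for single-stranded DNA at stalled forks, had 95.3 and 91.2 CPM in PM2.5 and 96.3 and 91.8 CPM in control, with an interval of -0.15 to 0.13. The groups overlapped for both, and both intervals span 0. Chek1, the effector kinase of ATR, had 28.8 and 28.9 CPM in PM2.5 and 32.5 and 31.6 CPM in control, a log2 fold change of -0.15 (95% interval -0.31 to 0.02). Chek2, the effector kinase of ATM, pointed the other way, with 25.5 and 25.2 CPM in PM2.5 and 22.7 and 23.9 CPM in control (log2 fold change 0.12, 95% interval -0.06 to 0.31). Parp1, which marks breaks with poly(ADP-ribose), was the most abundant of the 30 per length, at 42.9 and 42.4 RPKM in PM2.5 and 45.6 and 42.5 RPKM in control. Its log2 fold change was -0.07 (95% interval -0.20 to 0.06).

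The choice between recombination and end joining is set by 53BP1, which protects ends, and by CtIP, EXO1 and the BLM helicase, which resect them. Rbbp8, the gene of CtIP (ENSMUSG00000041238, chromosome 18, 11766333 to 11878278, plus strand), had 33.5 and 35.6 CPM in PM2.5, against 41.3 and 42.3 CPM in control. It fell by 0.28 (SE 0.07, edgeR adjusted p = 0.01143), without overlap between the groups. That call ended with DESeq2 (log2 fold change -0.29, adjusted p = 0.06208) and with PM2.5 replicate 1 left out (log2 fold change -0.24, edgeR adjusted p = 0.09179). A second deposited count of the same gene, which includes reads outside the raw count, was higher in PM2.5 (log2 fold change 0.59, edgeR adjusted p = 0.0001575). On the reads outside the raw count alone, edgeR called 2 of the 30 higher and 2 lower, against 10.4% higher and 9.24% lower of all genes tested on them. Trp53bp1, Exo1 and Blm did not pass the test, with log2 fold changes between -0.04 and 0.03. Exo1 had 44.6 and 44.9 CPM in PM2.5, inside the control values of 47.9 and 42.2 CPM.

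BRCA1 works with its partner BARD1, and PALB2 with BRCA2, to prepare resected DNA for recombination. Brca2 (ENSMUSG00000041147, chromosome 5, 150446095 to 150493794, plus strand) had 87.4 and 89.7 CPM in PM2.5, against 75.2 and 78.1 CPM in control. It was the only one of the 30 to rise, by a log2 change of 0.21 (SE 0.06; edgeR adjusted p = 0.02219), with no overlap between the groups. The call ended without either of the PM2.5 libraries (log2 fold change 0.22, edgeR adjusted p = 0.07999 without PM2.5 replicate 1, and 0.19, adjusted p = 0.1607 without PM2.5 replicate 2). It also ended without Control replicate 1 (log2 fold change 0.18, edgeR adjusted p = 0.07708) and with DESeq2 (0.20, adjusted p = 0.09752). Brca1 had 75.5 and 74.7 CPM in PM2.5 and 80.9 and 81.0 CPM in control, a log2 fold change of -0.11 (95% interval -0.24 to 0.03). Bard1 and Palb2 had log2 fold changes of 0.09 and -0.13, and their groups overlapped. Per length, Brca2 stood at 6.87 and 7.08 RPKM in PM2.5 and 5.82 and 6.07 RPKM in control, while its partner Palb2, one of the least abundant of the 30, stayed between 2.30 and 2.74 RPKM.

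Strand invasion involves the translocases RAD54L and RAD54B, the cofactor RAD51AP1, and XRCC2 and XRCC3. Both translocase genes fell. Rad54b (ENSMUSG00000078773, chromosome 4, 11558922 to 11615805, plus strand) had 24.4 and 24.2 CPM in PM2.5, against 31.0 and 33.5 CPM in control, with a log2 change of -0.41 (SE 0.08; edgeR adjusted p = 0.00262). Rad54l (ENSMUSG00000028702, chromosome 4, 115951461 to 115980887, minus strand) had 24.5 and 22.8 CPM in PM2.5, against 31.9 and 29.6 CPM in control, with a log2 change of -0.37 (SE 0.08; edgeR adjusted p = 0.00581). Neither overlapped between groups, and the ratio of Rad54b to Rad54l per length was 0.585 and 0.623 in PM2.5, inside the control values of 0.572 and 0.667. Rad54b shares 7927 bases of its locus with Fsbp on the same strand, and Rad54l shares 2780 bases with Lrrc41 on the opposite strand, so their counts carry that uncertainty. Rad51ap1, Xrcc2 and Xrcc3 did not pass the test, with log2 fold changes of -0.19, 0.16 and -0.02. For Xrcc2 and Xrcc3 the groups overlapped.

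In the Fanconi anemia pathway a core complex that includes FANCA and FANCB ubiquitinates the FANCD2 and FANCI pair, and the helicase BRIP1 acts further on with BRCA1. Fanca (ENSMUSG00000032815, chromosome 8, 123995039 to 124045315, minus strand) had 50.4 and 54.6 CPM in PM2.5, against 77.8 and 66.5 CPM in control. It fell by 0.46 (SE 0.08, edgeR adjusted p = 0.001931), and the wide control spread still left the groups apart. It overlaps Zfp276 on the opposite strand by 1446 bases. Brip1 (ENSMUSG00000034329, chromosome 11, 85948964 to 86092019, minus strand) had 35.4 and 36.8 CPM in PM2.5, against 41.5 and 43.3 CPM in control, with a log2 change of -0.23 (SE 0.07; edgeR adjusted p = 0.02319). That call ended under 11 of 20 alternatives, although its size changed little with DESeq2 (log2 fold change -0.24, adjusted p = 0.1208). It was -0.21 without PM2.5 replicate 1 (edgeR adjusted p = 0.1373), -0.26 without PM2.5 replicate 2 (0.06347) and -0.21 without Control replicate 2 (0.07334). Fancd2 had 34.2 and 32.0 CPM in PM2.5 and 31.3 and 26.8 CPM in control (log2 fold change 0.19, 95% interval -0.01 to 0.39), and its partner Fanci had a log2 fold change of 0.00 (95% interval -0.15 to 0.16). Fancb had 12.3 and 12.5 CPM in PM2.5 and 16.6 and 13.1 CPM in control, where the first control library sets most of the difference. Its log2 fold change was -0.25 (95% interval -0.54 to 0.04).

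End joining starts when the Ku pair, XRCC5 and XRCC6, captures the ends and recruits DNA-PKcs, encoded by Prkdc, and it finishes when LIG4 with XRCC4 seals them. None of these 5 genes passed the test. Prkdc had 51.5 and 51.1 CPM in PM2.5 and 54.0 and 61.1 CPM in control, a log2 fold change of -0.17 (95% interval -0.34 to -0.00, edgeR adjusted p = 0.101). Xrcc6 was about as abundant per length as the MRN genes, at 12.5 RPKM on average, and had 51.4 and 56.7 CPM in PM2.5 and 58.4 and 56.4 CPM in control. Its partner Xrcc5 stood at 5.74 and 6.16 RPKM in PM2.5 and 6.58 and 6.32 RPKM in control. Lig4 had 15.6 and 18.2 CPM in PM2.5 and 14.0 and 15.1 CPM in control, a log2 fold change of 0.21 (95% interval -0.04 to 0.47). Xrcc4 was the least abundant of the 30, with 144 and 115 counts in PM2.5 and 89 and 165 in control, and its interval of -0.19 to 0.63 was the widest. Xrcc4, Xrcc6, Xrcc3, Fanci and Trp53bp1 also overlap other genes (Tmem167, Desi1, Klc1, Polg and Tubgcp4, in that order), and since the strand setting of the counting is not stated, their counts share the uncertainty given above for Rad54b and Rad54l.

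**Figure D2:**
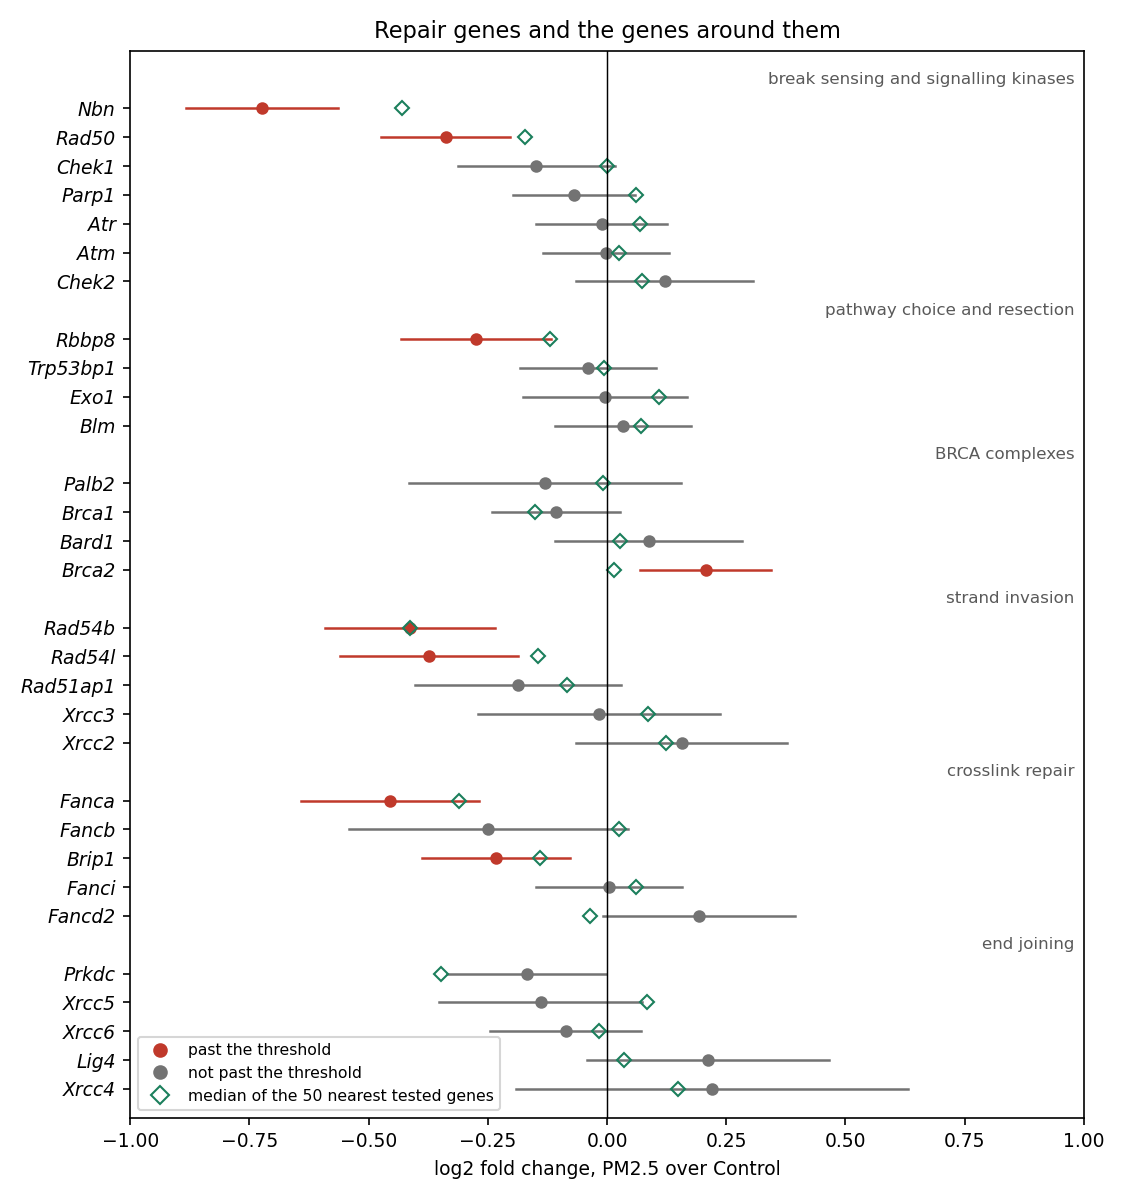
Log2 fold change of PM2.5 over control for the 30 repair genes (points, with 95% intervals from the edgeR fit as lines), and the median over the up to 50 nearest tested genes (diamonds), grouped by role. Each of the 7 red points left of 0 has its diamond left of 0 too, and for Rad54b both sit at -0.41.

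The genes that fell lay in stretches where the median gene was lower too, by unequal amounts. Of the 15 chromosomes that carry a repair gene, chromosome 4 held Nbn, Rad54b and Rad54l, all lower, and chromosome 11 held Rad50 and Brip1, both lower, and Brca1. On chromosome 4, 46.7% of 747 tested genes were lower and the median log2 fold change was -0.22. On chromosome 11, 38% of 982 were lower with a median of -0.14, and on chromosome 8, which holds Fanca, 37.2% of 680 with a median of -0.14. On chromosome 18, which holds Rbbp8, 23% of 331 were lower with a median of -0.07, near the share of all genes. For each repair gene the median log2 fold change of up to 25 tested genes on either side was taken. It was below -0.1 for all 7 genes that fell and for 2 of the 22 that did not pass, Brca1 and Prkdc, and it was 0.01 for Brca2. Around Nbn it was -0.43, with 34 of 50 neighbours called lower, and around Rad54b, which shares 36 of these neighbours, it was -0.41 with 33 of 49. Around Fanca it was -0.31, with 29 of 50 lower, around Rad50 -0.17 with 22, and around Rad54l -0.14 with 18. Rbbp8 (-0.12) and Brip1 (-0.14) each had 15 of 50 neighbours lower, as did Brca1 (-0.15), which did not pass.

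To set each repair gene against its own stretch of chromosome, the median of its neighbours was entered as an offset in the edgeR fit. That median came from the same libraries and was entered as fixed. The SE and p-values relative to neighbours therefore leave out the spread of the neighbours. Nbn stayed past the threshold, with a log2 fold change of -0.29 relative to its neighbours (SE 0.07, edgeR adjusted p = 0.01091), and so did Brca2, with 0.19 (SE 0.06, edgeR adjusted p = 0.03602). The other 6 genes that fell did not pass relative to their neighbours. For Rad50 the log2 fold change was -0.17 (edgeR adjusted p = 0.06088), for Rad54l -0.23 (0.0611), for Rbbp8 -0.16 (0.1184), for Fanca -0.15 (0.2126), for Brip1 -0.09 (0.3486) and for Rad54b -0.00 (0.9975). Relative to neighbours, 1 repair gene was thus higher and 1 lower, against 16.1% of all tested genes in each direction. With 50 neighbours on each side, a window added after seeing the data, Rad50 passed as well (log2 fold change -0.21, edgeR adjusted p = 0.02624), so its call depends on the window.

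**Figure D3:**
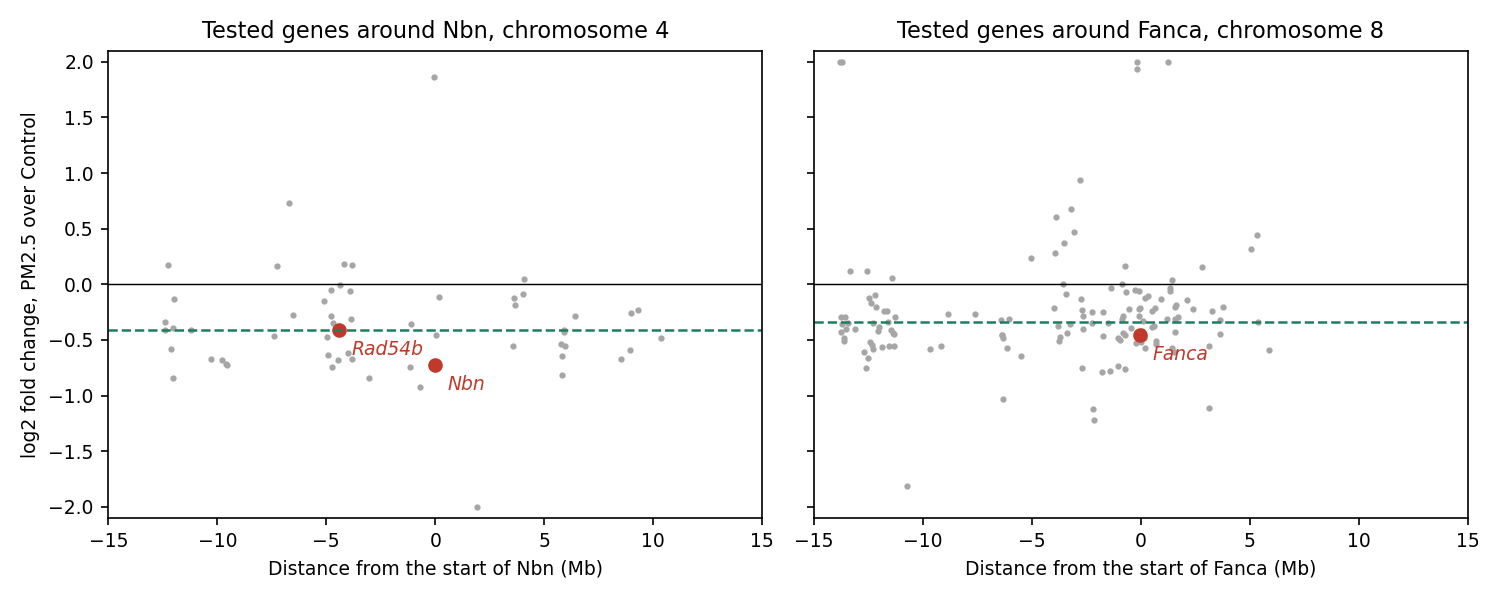
Log2 fold change of PM2.5 over control for every tested gene (grey points) within 15 Mb on either side of Nbn (left panel) and of Fanca (right panel), with repair genes in red and the median of the other genes as a dashed line. Of 56 other genes around Nbn, 49 lie below 0 (median -0.41), and of 142 around Fanca, 121 lie below 0 (median -0.34). Values beyond 2 in either direction, 1 around Nbn and 4 around Fanca, are drawn at that limit.

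The neighbours of Prkdc on chromosome 16 had a median log2 fold change of -0.35, with 33 of 50 called lower, while Prkdc itself had -0.17, and relative to its neighbours its value was 0.18 (SE 0.08, edgeR adjusted p = 0.09157). It starts 466 bases from Mcm4, a subunit of the replicative helicase that is transcribed in the other direction. Mcm4 averaged 198 CPM in PM2.5 and 271 CPM in control, and fell by 0.45 (SE 0.06, edgeR adjusted p = 0.0001917).

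Gene length also moved with the fold changes. The median length of the 30 repair genes was 6271 bases, against 4078 bases over all tested genes, as implied by their counts and RPKM. This is the length by which RPKM divides, not the span of the locus. When a smooth trend on length was entered as an offset, 12 repair genes were lower and none higher in edgeR, against 29.6% lower and 13.9% higher of all tested genes. The 5 added to the 7 above were Chek1, Trp53bp1, Brca1, Rad51ap1 and Prkdc, and Brca2 had 0.06 (edgeR adjusted p = 0.4848). That offset also shifted the median of all tested genes to -0.08, and that of the 30 to -0.17. The part of gene length in the results was not tested further.

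The proportions between partners were compared per length, as a description without a test. Bard1 stood at 0.411 and 0.475 of Brca1 in PM2.5, against 0.385 and 0.387 in control. Fancd2 stood at 0.739 and 0.721 of Fanci in PM2.5, against 0.712 and 0.580 in control. Brca2 stood at 2.98 and 3.01 times Palb2 in PM2.5, against 2.12 and 2.64 times in control. In these 3 pairs both PM2.5 values lay above both control values, whereas for Xrcc5 over Xrcc6 they lay below, at 0.493 and 0.478 in PM2.5 against 0.505 and 0.501 in control. Rad50 over Mre11a also lay below, at 1.45 and 1.42 in PM2.5 against 1.52 and 1.68 in control. The ratio of Lig4 to Xrcc4 overlapped between groups. Separation of the groups was common for single genes, with 35.9% of all tested genes above and 35.1% below in CPM. The corresponding share for ratios was not computed.

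Other genes of the same pathways were read from 5 lists that hold none of the 30. Of 34 further recombination genes, 2 rose and 8 fell, with a median log2 fold change of -0.04. The counts were 5 higher and 6 lower with library size alone, 3 and 5 relative to neighbours, and 2 and 4 without PM2.5 replicate 2. The endonuclease gene Mus81 had 35.1 and 33.6 CPM in PM2.5, against 24.6 and 23.9 CPM in control (log2 fold change 0.51, edgeR adjusted p = 0.0006162). Swi5, a recombination cofactor, and Top3a, which dissolves recombination intermediates, fell by 0.32 and 0.37 on the log2 scale. Of 26 further crosslink repair genes, 3 rose and 7 fell (median -0.04), and relative to neighbours the balance turned to 5 higher and 2 lower. Usp1, which removes ubiquitin from FANCD2, had 167 and 165 CPM in PM2.5, against 217 and 221 CPM in control, a log2 fold change of -0.40 (edgeR adjusted p = 0.0002783). The ubiquitin ligase gene Rfwd3 and the core complex gene Fance fell by 0.42 and 0.52. Relative to their neighbours, Fance passed (edgeR adjusted p = 0.01737), and Usp1 (0.2055) and Rfwd3 (0.8849) did not.

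Of 16 further end joining genes, 2 rose and 2 fell (median -0.03), with 1 each way relative to neighbours and 0 higher without PM2.5 replicate 1. Polq, the polymerase of theta-mediated end joining, and Lig3, a ligase, fell by 0.45 and 0.29, and the polymerase gene Polm rose by 0.36. Of 29 tested genes of break signalling and end protection, 3 rose and 7 fell (median -0.08), against 5 each way with library size alone, and 5 were higher and 7 lower without Control replicate 2. H2ax, the histone variant that is phosphorylated around breaks, had 115 and 116 CPM in PM2.5, against 74.0 and 69.0 CPM in control (log2 fold change 0.69, edgeR adjusted p = 2.415e-05). Babam2, a subunit of the BRCA1-A complex, rose by 0.48, and Atmin, which encodes an ATM interactor, fell by 0.45. Of 19 replication stress checkpoint genes, 1 rose and 4 fell (median -0.13), against 3 each way with library size alone. Without Control replicate 1, 2 were lower, and without either PM2.5 library none was higher. Mms22l, which acts at stalled forks, had 49.3 and 49.0 CPM in PM2.5, against 80.0 and 76.8 CPM in control (log2 fold change -0.67, edgeR adjusted p = 3.309e-05). The ATR activator gene Etaa1 and the CHK1 adaptor gene Clspn fell by 0.47 and 0.27. Each of the 5 lists was read beside the 20.4% lower and 19.2% higher of all tested genes. Relative to neighbours, break signalling had 3 higher and 6 lower, and the checkpoint list 1 higher and 4 lower. Over all tested genes that share was 16.1% in each direction. With the length offset, 13 recombination, 8 crosslink repair, 5 end joining, 12 break signalling and 10 checkpoint genes were lower. In the same order 2, 2, 2, 3 and 0 were higher, against 29.6% lower and 13.9% higher of all tested genes. Single genes named in lists other than crosslink repair are not set against their neighbours here.

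Lists of the cell cycle and of p53 targets were set beside the repair genes, since many recombination genes are transcribed with S phase. Of 38 S phase genes, 18 fell and none rose in edgeR (14 and 5 with library size alone), and they summed to 4175 and 4134 CPM in PM2.5, against 4748 and 4393 CPM in control. Relative to neighbours, 9 of the 38 were lower and 1 higher, against 16.1% of all tested genes in each direction. With the length offset, 25 of the 38 were lower and 0 higher, against 29.6% and 13.9% of all tested genes. Without PM2.5 replicate 2, 9 were lower, without PM2.5 replicate 1, 12 were lower, and without Control replicate 1, 13 were lower and 3 higher. Of 26 genes of G2 and mitosis, 3 rose and 4 fell, and the direction of the split depended on the scaling, with 9 higher and 2 lower with library size alone. Without PM2.5 replicate 2 there were 1 higher and 2 lower, and without Control replicate 2 there were 5 and 3. They summed to 5195 and 5258 CPM in PM2.5, against 5169 and 5129 CPM in control. Of 29 tested p53 targets, 8 rose and 2 fell (5 and 3 without PM2.5 replicate 1, 8 and 5 without Control replicate 2, 9 and 1 without PM2.5 replicate 2), and they summed to 2510 and 2216 CPM in PM2.5, against 2538 and 2334 CPM in control. Of S phase genes 47.4% were lower and 0% higher, and of G2 and mitosis genes 15.4% lower and 11.5% higher. For p53 targets the shares were 6.9% lower and 27.6% higher, against 20.4% and 19.2% of all tested genes. G2 and mitosis had 1 higher and 2 lower relative to neighbours, and p53 targets 7 higher and 3 lower. With library size alone, 10 p53 targets were higher and 1 lower. The part of these lists in the differences of single repair genes was not tested.

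**Figure D4:**
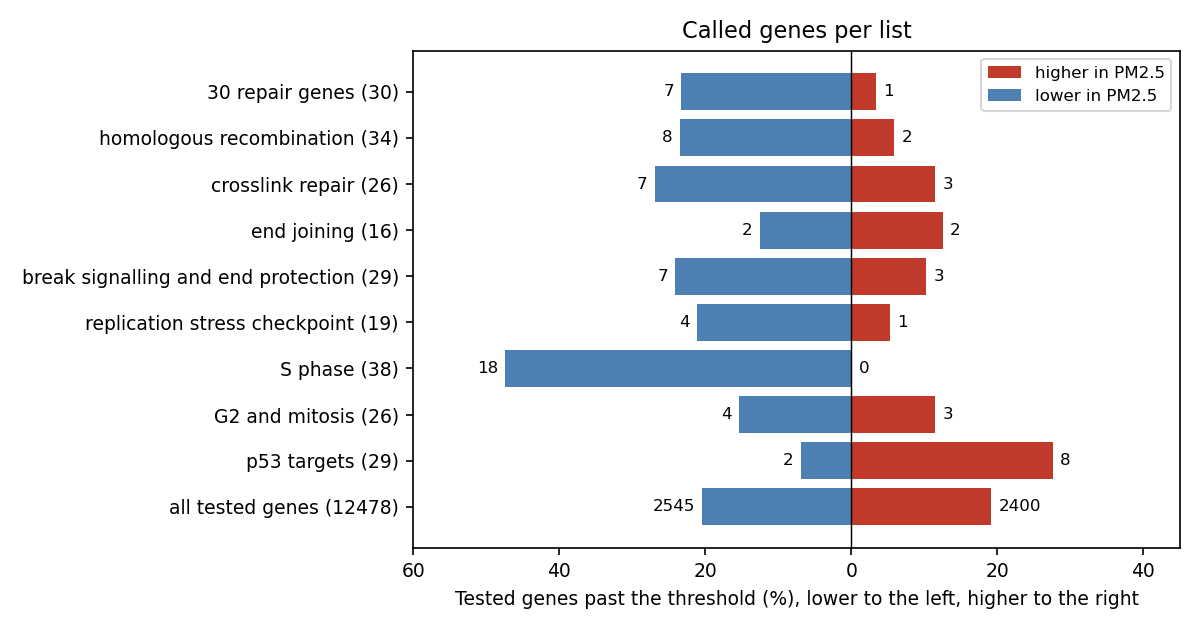
Share of tested genes past the threshold in each list (percent, higher in PM2.5 to the right in red, lower to the left in blue), with the number of genes at each bar and the number tested in brackets. S phase genes have 18 lower and 0 higher, the 30 repair genes 7 lower and 1 higher, and p53 targets 2 lower and 8 higher.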

How the data were processed

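Poly(A) RNA of 4 EpH4 libraries was prepared with a stranded mRNA kit, per the labels' protocols. The authors deposited raw counts per gene without normalization, RPKM per gene, and total gene reads per library. Reads were placed on the mouse build GRCm39, per the submitters' processing notes. For the aligner, the counter and its strand setting, the sources used here give nothing. Groups were taken from the sample titles. Counts were tested with edgeR 4.0.16 (R 4.3.3): genes with low counts were removed with filterByExpr, libraries were scaled by TMM, and a quasi-likelihood F test was adjusted by Benjamini-Hochberg over 12478 genes. CPM use TMM-scaled library sizes, and standard errors divide the log2 fold change by the root of F. At these depths 3 counts correspond to 0.116 to 0.158 CPM, and intervals on fold changes come from the fit at 95%. The code was tested on simulated counts. Alternatives covered scaling, filters, DESeq2 1.42.0, limma 3.58.1 on counts and on log2(RPKM + 0.1) and log2(RPKM + 1), a replicate block, each library left out, thinning, a minimum fold, and offsets for position and length. An offset over 50 genes a side and the total gene reads were added after seeing the data. All 30 genes are named, and each pathway list names the up to 3 called genes with the smallest adjusted p. Mre11a and Mcm4 were named outside that rule, after their values were seen. The genes and lists were chosen with earlier results of these data known.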

Additional observations from a re-analysis of the deposited data

Results flagged for a closer look

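A second deposited column, total gene reads, was never below the raw count, and its header does not define the difference. Reads outside the raw count made up 11.7% and 11.6% of total gene reads in PM2.5, against 9.81% and 10.5% in control. Over 12208 genes tested on these reads with edgeR, 10.4% were higher and 9.24% lower, and of the 30 repair genes 2 were higher and 2 lower. These reads lie outside the raw counts that the tests of the 30 genes rest on. Rbbp8 had 2575 and 2495 such reads in PM2.5, against 1131 and 1726 in control, 0.85 higher on the log2 scale (SE 0.08; edgeR, adjusted p = 1.259e-07). They were 78.8% and 78.7% of its total gene reads in PM2.5, against 59.0% and 61.3% in control, while its raw count fell by 0.28. Xrcc4 had 258 and 308 such reads in PM2.5, against 166 and 249 in control, 0.47 higher on the log2 scale (SE 0.13; edgeR, adjusted p = 0.01413). The cause of either difference was not tested. Fanca and Rad54b were lower in these reads, by log2 fold changes of -0.55 (edgeR adjusted p = 0.0001894) and -0.38 (edgeR adjusted p = 0.009541), as in their raw counts.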

How the results depend on the processing

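Across the 20 alternatives, 500 values for the 30 genes kept their direction and side of the threshold, 38 lost a call, 10 gained one and 52 changed sign. A value that changed sign was counted only there. Among these, Rad54b over 50 genes a side was no longer called, and Rbbp8 with total gene reads was called higher. Chek1, Trp53bp1, Brca1, Rad51ap1 and Prkdc gained a call with the length offset. Fancd2 gained one with library size alone (log2 fold change 0.26) and Xrcc4 with total gene reads (0.45). The remaining gains came with a control library left out. Without Control replicate 1, Fancd2 had 0.30 and Prkdc -0.26, and without Control replicate 2, Fancb had -0.43. The number of repair genes called higher (1) became 2 with library size alone and 3 with total gene reads. It became 0 with DESeq2, with limma-trend on log2(RPKM + 0.1) or log2(RPKM + 1), after thinning, with the length offset and against 1.5-fold. The number called lower (7) became 5 with DESeq2 and with limma-trend on either RPKM scale. It became 6 with upper quartile scaling, with library size alone and with total gene reads. The positional offset gave 1, 50 genes a side gave 2 (Nbn and Rad50), the length offset 12 and the test against 1.5-fold 0. Leaving out each library in turn gave 0 to 1 higher and 5 to 8 lower. Over all tested genes DESeq2 called 1389 higher, the test against 1.5-fold called 401 higher and 114 lower, and leaving out libraries gave 1516 to 2299 higher and 1680 to 2578 lower. With the replicate block, 1 repair gene was higher and 7 lower, as without it, and 2797 genes were higher and 2976 lower. Deviations of same-numbered libraries correlated at 0.16 over genes, which cannot decide whether these libraries were paired.

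Signs changed as follows, in log2 fold change. With upper quartile scaling, Atm had 0.0415, Atr 0.0324, Trp53bp1 0.00356, Exo1 0.0396 and Xrcc3 0.0264. With library size alone, Atm had 0.0609, Atr 0.0518, Trp53bp1 0.0230, Exo1 0.0591 and Xrcc3 0.0455. Without a filter, Fanci had -0.0167. With a stricter filter, Atm had 0.00430 and Exo1 0.00246. With DESeq2, Fanci had -0.00700. With limma-voom, Exo1 had 0.00314. On log2(RPKM + 0.1), Atm had 0.0201, Atr 0.0107, Exo1 0.0177 and Xrcc3 0.0120. On log2(RPKM + 1), Atm had 0.0186, Atr 0.00981, Exo1 0.0145 and Xrcc3 0.00991. After thinning, Atm had 0.00410 and Fanci -0.000401. With the positional offset, Blm had -0.0367, Brca1 0.0425, Fanci -0.0557 and Prkdc 0.18. With the length offset, Blm had -0.0546, Bard1 -0.00527 and Fanci -0.0905. Over 50 genes a side, Blm had -0.0367, Brca1 0.0320, Bard1 -0.00621, Rad54b 0.0159, Fanci -0.0843 and Prkdc 0.13. With total gene reads, Rbbp8 had 0.59, Blm -0.0308 and Fanci -0.0393. Without single libraries, values ranged as follows: Atm between -0.0525 and 0.0420, Atr between -0.0519 and 0.0189, Exo1 between -0.10 and 0.0828, Fanci between -0.0327 and 0.0343, Xrcc3 between -0.0865 and 0.0545, Trp53bp1 between -0.0970 and 0.0100, and Bard1 between -0.0137 and 0.18. The cause of these changes was not tested. Depth limits Xrcc4 most, at 89 counts in its lowest library.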
